A study of Homo sapiens with 9 samples.

Results

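The comparison of pralatrexate-treated RH4 cells at day 10 with the same cells at baseline measured the total fitness cost of each kinase knockout under drug exposure. RH4 is a human rhabdomyosarcoma line that carries the PAX3::FOXO1 fusion. The cells were infected with a lentiviral single guide RNA (sgRNA) library against 763 genes for kinases and kinase-related proteins, the Brunello kinome library, and a knockout that slows growth or kills loses its share of the culture over time. All samples labelled baseline or pralatrexate were taken, which gave 6 of the 9 samples of the study, 3 in each group, and every one of its 763 genes. Infection was at a coverage of 1000 cells per sgRNA. Cells of all groups carried the fusion and the library and were selected with puromycin at 0.25 µg/ml for 72 h, from 48 h after infection. Baseline cells were harvested after selection and received no drug. The pralatrexate group recovered for 72 h, then grew for 10 days in 1.5 nM pralatrexate with a passage every 4 days. The remaining 3 samples received vehicle over the same 10 days and are used here beside the results of the drug arm. Guides were counted by PCR of their cassette from genomic DNA, so the values are shares of reads in a pool of cells and hold no expression, and the identity of the line was not checked by markers.

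Pralatrexate is an antifolate that inhibits dihydrofolate reductase and so limits the folate cofactors needed to make thymidylate and purines. In a dropout screen, guides against genes that every dividing cell needs disappear, guides against genes the cell does not use keep their share, and guides against genes that restrain growth gain. A change from baseline holds both the cost of the knockout in untreated culture and any cost or gain that the drug adds. Guide sequences were not among the data used here, so genes are given by symbol and by their span on GRCh38 (GENCODE release 44), which is not the position of a cut.

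Library totals ran from 3483100 to 4431337 reads at baseline and from 2468136 to 4227230 reads with pralatrexate. Unevenness of the pool, as the Gini index, was 0.237 to 0.243 at baseline and 0.285 to 0.287 with pralatrexate. The common dispersion was 0.0173, which is a variation of 13.2% between repeats beyond the noise of counting. It is a single value pooled over all sgRNAs and all 9 libraries, vehicle included. The sgRNA tests below also fit a spread for each sgRNA. Rare sgRNAs vary more. The labels number the samples as repeats, and the study calls them both parallel cultures and technical replicates, so the p-values cover the spread of these repeats alone, and it may be technical. Intervals and tests cover no bias of amplification, since PCR copies were counted as separate reads.

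After 10 days in pralatrexate, 55 gene knockouts were depleted and 2 were enriched relative to baseline. The depleted knockouts were led by the mitotic kinase CDK1, the replication kinase CDC7 and the nucleotide kinase DTYMK, and the enriched ones were CDK13 and GSK3B. A gene's change is the mean log2 fold change of its sgRNAs, and a gene was called where the robust rank aggregation of its edgeR sgRNA p-values had a false discovery rate (FDR, Benjamini-Hochberg over 763 genes) under 0.05. By this rule 7.21% of genes were depleted and 0.262% were enriched, while 113 genes were lower and 67 higher at an unadjusted p under 0.05. The balance depended on how sgRNAs were combined: 174 genes were lower and 123 higher with edgeR on summed reads, 152 and 75 with limma on gene means, and 21 and 1 without the strongest sgRNA of each gene. Enriched genes numbered 1 without pralatrexate replicate 2 and 5 without baseline replicate 3. Depleted genes had a median log2 fold change of -1.52, or 34.8% of their baseline share, and 45 of the 55 fell by more than 1 on the log2 scale. The median over all 763 genes was 0.01, with quartiles of -0.15 and 0.13, and 677 genes lay within 0.5 of 0. Seen from the samples, 25.6% of genes had all 3 pralatrexate levels below all 3 baseline levels and 20.3% had all 3 above. All 55 depleted and both enriched genes, called from the same libraries, were among these.

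The zero of this scale lies near the median targeting sgRNA (0.01), not at a harmless one. Non-targeting sgRNAs, which cut nowhere, had a median log2 fold change of 0.34 ± 0.14 (SD, 99 sgRNAs), from -0.17 to 0.66, and rose from 3.27% to 3.30% of reads at baseline to 4.11% to 4.19% with pralatrexate. The groups did not overlap in this share. Of the 99, 35 passed higher on their own in edgeR at FDR under 0.05 and 0 passed lower. Only 13 of 763 genes lay above the non-targeting median. With libraries scaled on the non-targeting sgRNAs, the median gene stood at -0.31, 48 genes were depleted and the same 2 were enriched. The sign of a small positive change thus depends on this choice. On that scale 8 sgRNAs passed higher. Gene calls rest on ranks among all sgRNAs, which a shift common to all moves little, so a kept call is no separate support.

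**Figure D1:**
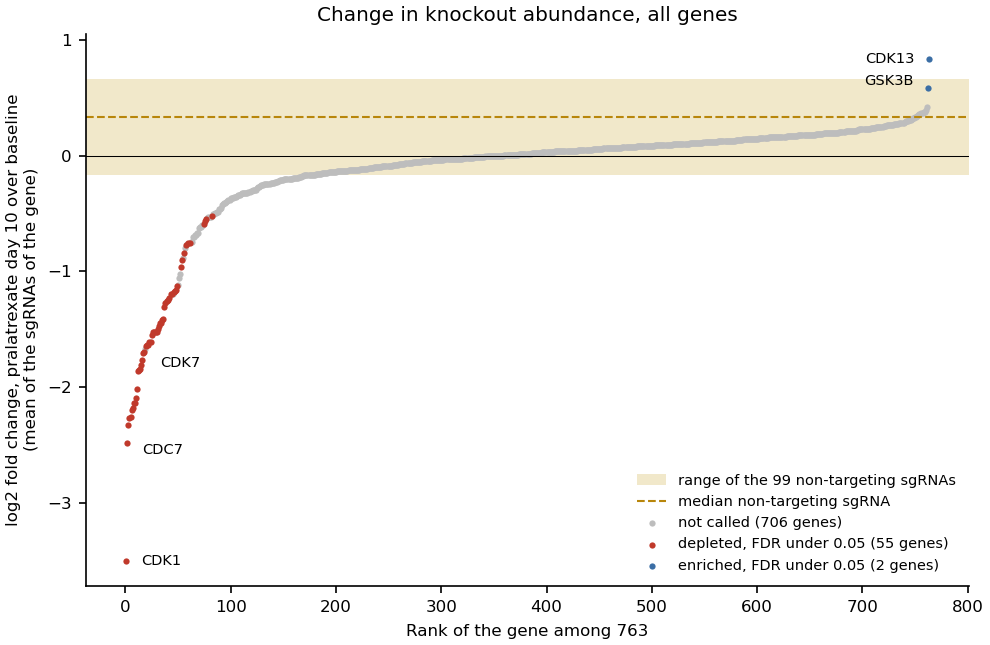
Mean log2 fold change of the sgRNAs of each gene, pralatrexate day 10 over baseline, for all 763 genes in rank order. Red points are the 55 depleted genes, blue points the 2 enriched genes and grey points the rest, with the range and median (0.34) of 99 non-targeting sgRNAs as a band and a dashed line. CDK1 lies alone at -3.50, most genes lie within 0.5 of 0, and CDK13 lies above the non-targeting band.

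At the level of single sgRNAs, 412 of 3145 (13.1%) were lower and 188 (5.98%) were higher in edgeR at FDR under 0.05. The depleted genes held 219 tested sgRNAs, of which 216 were lower and 200 passed on their own. In 52 of the 55 genes every sgRNA was lower. The exceptions were PDPK1, RIOK1 and ACTR2, where 1 sgRNA each had a log2 fold change of 0.31, 0.11 and 0.07. In 36 genes all sgRNAs passed singly. A further 212 sgRNAs passed lower in 135 genes that were not called. The SD between sgRNAs of a depleted gene had a median of 0.67, against 0.18 over all genes. The SD of a depleted gene's level between the 3 pralatrexate libraries had a median of 0.134. That level is already averaged over the gene's sgRNAs, so these SDs are unlike measures. Without the strongest sgRNA of each gene, CDK13 alone remained enriched.

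The cell cycle and mitosis group held the most depleted gene, CDK1. Of its 31 genes, 11 (35.5%) were depleted, beside 7.21% of all genes, and 0 were enriched by rank aggregation, with a median of -0.53 against 0.01 over all genes. CDK1 (chr10:60778331-60794852), which drives entry into mitosis, had levels of 7.57, 7.44 and 7.58 at baseline and 3.91, 4.13 and 4.14 with pralatrexate, a level being the mean log2 CPM (read count scaled to library size) of the gene's sgRNAs in 1 library. All 3 treated libraries lay more than 3 log2 units below every baseline library. The change of CDK1 was -3.50 ± 1.32 (log2, mean and SD of 4 sgRNAs; edgeR and rank aggregation, FDR 0.00348), which left 8.85% of its baseline share. Its strongest sgRNA went from 1415, 1352 and 1156 reads to 19, 24 and 36, the lowest log2 fold change of any sgRNA (-5.44 ± 0.38, SE).

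CDC7 (chr1:91500851-91525764), the kinase that fires replication origins, had levels of 7.86, 7.78 and 7.88 at baseline and 5.27, 5.61 and 5.24 with pralatrexate. The groups were far apart, and the change was -2.48 ± 1.71 (SD, 4 sgRNAs; FDR 0.0044), with single sgRNAs from -4.26 to -0.67. PLK1 (chr16:23677656-23690367), which is needed for spindle assembly and overlaps ERN2 on the other strand, had 7.04, 6.87 and 6.69 at baseline and 5.12, 4.72 and 4.19 with pralatrexate. Its 4 sgRNAs lay close together, from -2.55 to -1.85, around a mean of -2.09 ± 0.32 (FDR 0.0044).

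The centriole kinase PLK4 (-1.84 ± 1.22, FDR 0.0105) and the Aurora kinases AURKB (-1.85 ± 0.74, FDR 0.00348) and AURKA (-1.69 ± 0.59, FDR 0.0044) fell by similar amounts. AURKB, part of the chromosomal passenger complex, had 8.20, 8.36 and 8.25 at baseline against 6.57, 6.32 and 6.35, and PLK4 had 7.94, 8.0 and 8.11 against 6.22, 6.18 and 6.16. In both genes the treated libraries agreed within 0.3 and lay well below baseline. The other depleted members were the CDK1-inhibiting kinase PKMYT1 (-1.77), the G1 kinase CDK6 (-1.45), the spindle checkpoint kinase BUB1B (-1.31), the nuclear pore protein TPR (-1.23) and CDK2 (-0.52), which acts in S phase. CDK2 lost its call without baseline replicate 3 (FDR 0.0763).

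Family members of these genes, picked after their values were seen, were not called. CDK6 fell with all 4 sgRNAs lower (-1.94 to -0.92), whereas CDK4, the paired G1 kinase, was at -0.35 ± 0.39 (FDR 0.354), with levels of 7.55, 7.67 and 7.54 at baseline and 7.35, 7.13 and 7.2 with pralatrexate, which lay below every baseline library. AURKC, which works mainly in germ cells, was at -0.01, PLK3 at -0.01 and PLK2 at -0.18. Differences between family members were not tested. The spindle checkpoint kinase TTK (-1.06 ± 0.90, FDR 0.085) and WEE1 (-1.02 ± 0.62, FDR 0.0744), which like PKMYT1 holds CDK1 inactive, lay just outside the threshold with all 3 treated levels below baseline. WEE1 passed without baseline replicate 2 (FDR 0.0453) or pralatrexate replicate 1 (FDR 0.0426).

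The replication checkpoint had the lowest median after the essential genes, at -0.91 over 16 genes. Of the 16, 7 (43.8%) were depleted, beside 7.21% of all genes. The lists are not separate sets, since 53 genes are in several of them. CDC7 and PKMYT1 of the 7 also count in the cell cycle group, and SMG1 and CDK12 in the transcription group. CHEK1 (chr11:125625163-125676255), the effector kinase of that checkpoint, had levels of 8.32, 8.24 and 8.31 at baseline and 6.11, 5.90 and 5.98 with pralatrexate. Both groups were tight and more than 2 log2 units apart. CHEK1 fell by 2.26 ± 1.24 (SD, 4 sgRNAs; FDR 0.00358), and its gene span overlaps STT3A and ACRV1. Also depleted were HUS1 (-1.61), part of the clamp that helps activate the checkpoint, the chromatin assembly kinase TLK2 (-1.47) and SMG1 (-1.25), a kinase of nonsense-mediated decay and the DNA damage response. ATR, which activates CHEK1, was at -0.80 ± 0.59 and did not pass (FDR 0.164). ATM and CHEK2, the double-strand break pair, were at 0.13 and -0.03, and TLK1 was at -0.05.

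Among genes for transcription and RNA processing, 9 of 29 (31.0%) were depleted, beside 7.21% of all genes, and 1, CDK13, was enriched. The median of the group was -0.37. TRRAP (chr7:98877933-99050831), a scaffold of histone acetyltransferase complexes that overlaps SMURF1, had 7.91, 7.88 and 7.70 at baseline and 5.82, 5.37 and 5.62 with pralatrexate. It fell by 2.20 ± 0.75 (SD, 4 sgRNAs; FDR 0.00358), and every one of its sgRNAs fell by more than 1.5. CDK9 (chr9:127785679-127790792), which releases paused RNA polymerase II, was the least even of the leading genes. Its levels were 7.38, 7.35 and 6.41 at baseline and 5.67, 4.50 and 5.14 with pralatrexate, so the groups did not overlap but both were wide. CDK9 fell by 1.86 ± 0.54 (FDR 0.015). Its rarest sgRNA had 112, 116 and 7 reads at baseline and 43, 0 and 28 with pralatrexate, and did not pass singly (FDR 0.271).

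Other depleted genes of this group were TAF1 (-1.61), a subunit of the general factor TFIID, GTF2H1 (-1.52) of TFIIH, the exosome nuclease EXOSC10 (-1.50), the splicing kinase PRPF4B (-1.42), SMG1 (-1.25) and CDK12 (-1.17). CDK7, the TFIIH kinase, had the lowest mean of any gene that was not called, -1.67 ± 1.61 (FDR 0.125). Its sgRNAs were split, with 2 at -3.25 and -2.79, 1 at -0.76 and 1 at 0.13. TAF9, another TFIID subunit, was at -0.45 ± 0.23 (FDR 0.0937), and TAF9 crossed the threshold without pralatrexate replicate 1 (FDR 0.0443). Its gene span overlaps AK6 on the same strand and RAD17 on the other, and where its guides cut was not checked.

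CDK12 and CDK13, which both pair with cyclin K and phosphorylate RNA polymerase II, moved in opposite directions. CDK12 (chr17:39461486-39567559) had 8.72, 8.67 and 8.66 at baseline and 7.58, 7.75 and 7.08 with pralatrexate, and fell by 1.17 ± 0.57 (SD, 4 sgRNAs; FDR 0.00453). CDK13 (chr7:39950121-40099580) had 8.34, 8.29 and 8.40 at baseline and 9.20, 9.23 and 9.11 with pralatrexate, and rose by 0.83 ± 0.19 (FDR 1.22e-05). All 3 treated libraries were above baseline for CDK13 and below it for CDK12, and all 4 sgRNAs of each gene passed singly. With scaling on the non-targeting sgRNAs the pair stood at -1.49 and 0.51. Both kept their calls, which rest on ranks that such scaling moves little. The difference between the pair was not tested.

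**Figure D2:**
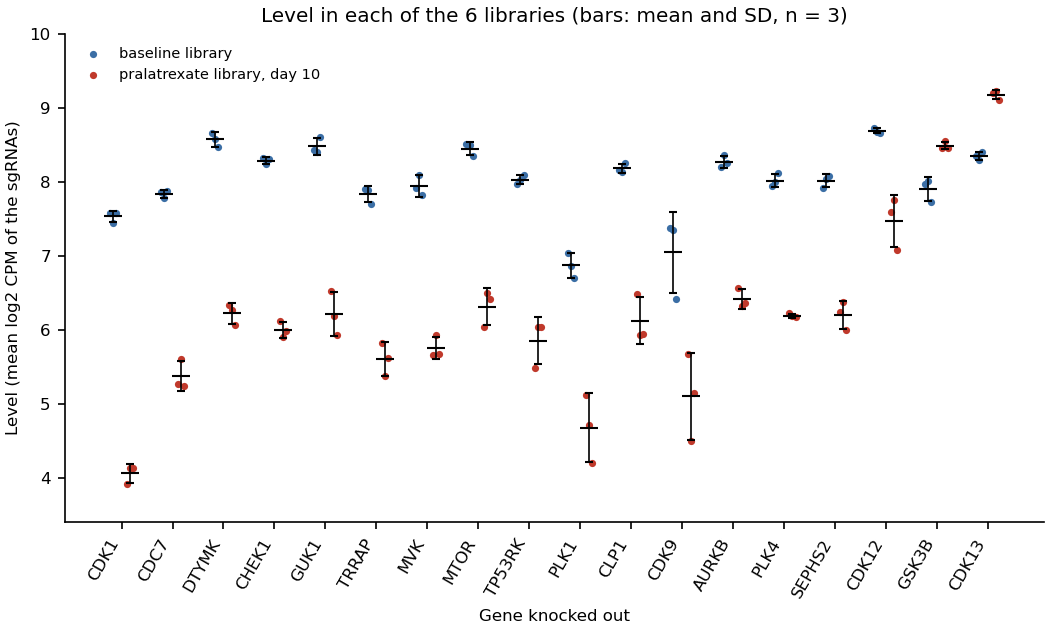
Level of the 15 most depleted genes, CDK12, GSK3B and CDK13 in each library, as the mean log2 CPM of the gene's sgRNAs, with baseline in blue, pralatrexate in red and bars for the mean and SD of 3 libraries. No gene shown has overlapping groups; CDK9 is the widest, with baseline from 6.41 to 7.38, and GSK3B and CDK13 alone lie higher with pralatrexate.

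In the group for tRNA maturation, ribosome assembly and control of translation, 3 of 11 genes (27.3%) were depleted, beside 7.21% of all genes. The median of the group was -0.37. TP53RK (chr20:46684365-46689444), a subunit of the KEOPS complex that modifies tRNA, had 7.96, 8.03 and 8.09 at baseline and 5.48, 6.04 and 6.03 with pralatrexate. It fell by 2.14 ± 1.29 (FDR 0.00637). CLP1 (chr11:57648188-57661865), an RNA kinase of tRNA splicing and mRNA 3' end formation, went from 8.15, 8.13 and 8.25 to 6.49, 5.93 and 5.94, a change of -2.02 ± 0.93 (FDR 0.0047). Neither gene's groups overlapped. RIOK1, which matures the small ribosomal subunit, fell by 1.45 ± 1.37 (FDR 0.0404). NOL9, a kinase of ribosomal RNA processing, was at -1.26 ± 0.90 just outside the threshold (FDR 0.0698), and NOL9 passed without pralatrexate replicate 1 (FDR 0.0329). The related kinases RIOK2 and RIOK3 were at -0.42 and -0.37 and did not pass.

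Kinases of nucleotide synthesis bear on the target of the drug, because folate cofactors feed the same pools. Of 31 genes, 4 (12.9%) were depleted, beside 7.21% of all genes, and the median was 0.00. Within 0.5 of 0 lay 26 of the 31 (83.9%), beside 88.7% of all genes. DTYMK (chr2:241675747-241686944), which phosphorylates thymidylate, had levels of 8.66, 8.57 and 8.47 at baseline and 6.34, 6.26 and 6.06 with pralatrexate. The groups were more than 2 log2 units apart, and the change was -2.33 ± 1.54 (SD, 4 sgRNAs; FDR 0.0044), with sgRNAs from -4.30 to -0.66. GUK1 (chr1:228139962-228148984), the guanylate kinase, had 8.43, 8.40 and 8.61 at baseline and 6.52, 6.19 and 5.93 with pralatrexate. GUK1 fell by 2.25 ± 1.33 over 3 sgRNAs (FDR 0.00453), since the other had too few reads to test.

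NME6, a mitochondrial member of the nucleoside diphosphate kinase family, fell by 1.18 ± 0.14 (FDR 0.00348), with the 4 sgRNAs in a narrow range from -1.34 to -1.03. Its relatives NME1 and NME2 were at -0.17 and -0.08. CAD, the first enzyme of pyrimidine synthesis, fell by 0.96 ± 0.57 (FDR 0.0287). The pyrimidine kinase CMPK1 was at -1.19 ± 1.11 (FDR 0.096) and crossed the threshold without pralatrexate replicate 3 (FDR 0.0471). The salvage kinases named by rule did not pass. TK1, which makes thymidylate from thymidine, was at -0.01 ± 0.16, with levels of 8.22, 8.17 and 8.15 at baseline and 8.16, 8.21 and 8.13 with pralatrexate. DCK was at 0.08 ± 0.10 and ADK at -0.03 ± 0.10. Among other salvage kinases, UCK1 was at -0.32 ± 0.09 (FDR 0.12) and DGUOK at 0.26 ± 0.21 (FDR 0.552).

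Metabolic kinases outside the nucleotide pathways held 10 depleted genes of 35 (28.6%), beside 7.21% of all genes, around a median of -0.08. The depleted genes sat in a few chains. In isoprenoid and dolichol synthesis, MVK (chr12:109573255-109598125), which phosphorylates mevalonate, had 7.91, 8.10 and 7.81 at baseline and 5.66, 5.92 and 5.67 with pralatrexate. MVK fell by 2.18 ± 0.96 (FDR 0.0044), and its span overlaps MMAB. The next kinase of the chain, PMVK (-1.19), and the dolichol kinase DOLK (-1.63) fell too. In glycolysis PGK1 (-1.70), PKM (-1.63) and HK2 (-0.84) fell, whereas HK1 was at -0.15, PGK2 at 0.08 and PKLR at -0.06. HK2 lost its call without baseline replicate 2 (FDR 0.0638) and without pralatrexate replicate 3 (FDR 0.0887).

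SEPHS2, which supplies selenophosphate for selenoproteins, had 7.92, 8.04 and 8.08 at baseline and 6.24, 6.37 and 6.0 with pralatrexate, a change of -1.81 ± 1.0 (FDR 0.00479). COASY, the last enzyme of coenzyme A synthesis, fell by 1.53, while PANK1, PANK2 and PANK3, which start that pathway, were at 0.25, 0.28 and 0.16. The mitochondrial RNA-binding protein LRPPRC fell by 1.64. NADK, which makes NADP in the cytosol, had 7.80, 7.77 and 7.78 at baseline and 7.27, 7.16 and 7.04 with pralatrexate. Its groups were separate, but its sgRNAs ran from -1.43 to -0.04, and at -0.62 ± 0.59 the gene did not pass (FDR 0.422). The mitochondrial enzyme NADK2 was at 0.08 ± 0.11.

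**Figure D3:**
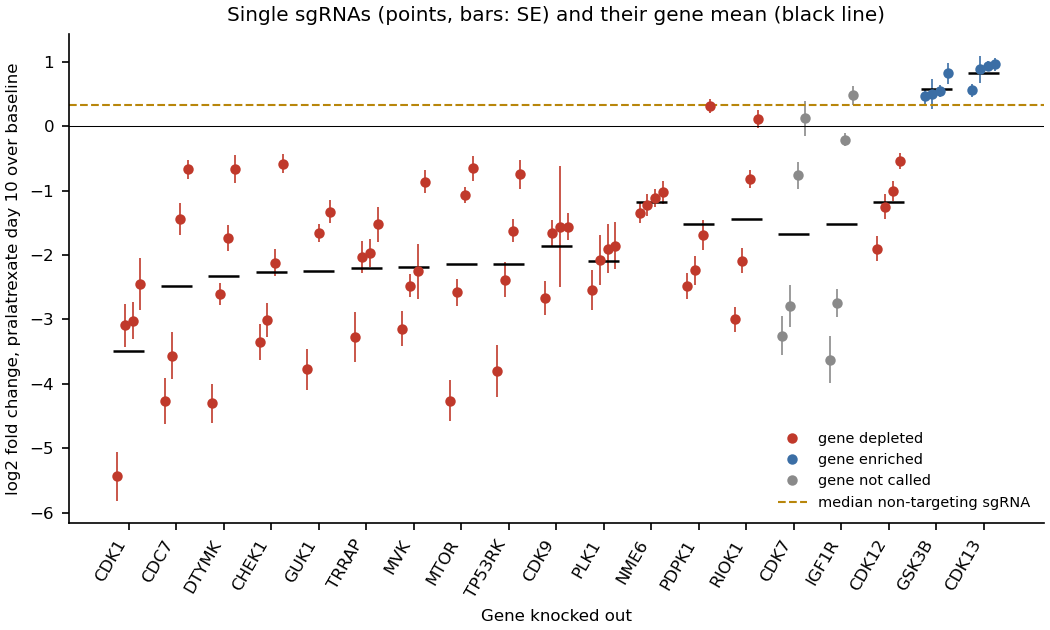
Log2 fold change of single sgRNAs, pralatrexate day 10 over baseline, with bars for the SE of the edgeR fit and a black line for the mean of the gene. The sgRNAs of NME6, PLK1 and CDK13 lie close together, while CDK7 and IGF1R, which were not called, each hold sgRNAs below -2.5 and above 0.

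In the PI3K, AKT and mTOR group, 3 of 17 genes (17.6%) were depleted, beside 7.21% of all genes, around a median of -0.11. MTOR (chr1:11106535-11262556) had 8.51, 8.49 and 8.34 at baseline and 6.03, 6.5 and 6.41 with pralatrexate, and fell by 2.14 ± 1.64 (FDR 0.00565). Its sgRNAs spread from -4.27 to -0.65, and all 4 passed singly. PDPK1, which activates AKT, fell by 1.52 ± 1.26 (FDR 0.0203), and the catalytic subunit PIK3CA fell by 1.16 ± 0.67 (FDR 0.009). PIK3CB was at 0.03. AKT1 lay just outside the threshold at -0.47 ± 0.08 (FDR 0.0807), with AKT2 at -0.24, and AKT1 passed without baseline replicate 2 (FDR 0.0435) or pralatrexate replicate 3 (FDR 0.0264). The regulatory subunit PIK3R1 was at 0.05 ± 0.27, with levels of 8.13, 7.90 and 7.97 at baseline and 8.04, 8.12 and 7.98 with pralatrexate, so its groups overlapped.

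No receptor tyrosine kinase was called among 38, where 7.21% of all genes were depleted, and 36 of them (94.7%) lay within 0.5 of 0, beside 88.7% of all genes. At an unadjusted p under 0.05 in the rank aggregation 3 of the 38 were lower and 3 higher, beside 113 and 67 of all 763 genes. On summed reads edgeR called 6 lower and 8 higher, beside 174 and 123 of the 763. The receptors outside 0.5 were IGF1R and FGFR4. IGF1R (chr15:98648539-98964530), the receptor for insulin-like growth factors, had 8.25, 8.31 and 8.16 at baseline and 6.89, 6.46 and 6.66 with pralatrexate, so its groups were far apart. Its mean was -1.52 ± 1.97 (FDR 0.0701), because 2 sgRNAs were at -3.63 and -2.75 and the other two were at -0.21 and 0.48. IGF1R passed without pralatrexate replicate 1 (FDR 0.0277). FGFR4, a receptor known for its high expression in fusion-positive rhabdomyosarcoma, had 8.29, 8.20 and 8.30 at baseline and 7.60, 7.44 and 7.60 with pralatrexate. FGFR4 was at -0.70 ± 0.47 (FDR 0.126).

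Of 39 genes of MAPK cascades 2 (5.13%) were depleted, a share close to the 7.21% of all genes, around a median of -0.03. MAPK14 (chr6:36027782-36111236), the p38 alpha kinase, had 8.40, 8.43 and 8.45 at baseline and 6.66, 7.0 and 6.96 with pralatrexate. MAPK14 fell by 1.55 ± 0.52 (FDR 0.00348) with all 4 sgRNAs at or below -1.15. The p38 relatives MAPK11, MAPK12 and MAPK13 were at 0.04, 0.04 and -0.13, and the p38 activators MAP2K3 and MAP2K6 at -0.31 and 0.04. MAPK6, an atypical MAPK, fell by 0.59 ± 0.09 (FDR 0.0274), and the classical MAP2K1 and MAP2K2 were at -0.17 and -0.25.

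Among 22 endosomal and phosphoinositide lipid kinases 3 (13.6%) were depleted, beside 7.21% of all genes, around a median of -0.17. The depleted ones were PIK3C3 (-1.28), the lipid kinase of endosomes and autophagy, its partner PIK3R4 (-0.76) and the inositol phosphate kinase ITPK1 (-1.20). ITPK1 lost its call without baseline replicate 2 (FDR 0.0677), baseline replicate 3 (FDR 0.0633) or pralatrexate replicate 2 (FDR 0.085). With scaling on the non-targeting sgRNAs, 1 of the 22 was depleted, beside 48 of all 763 genes on that scale. PIP5K1A, which makes phosphatidylinositol 4,5-bisphosphate, was at -0.70 ± 0.26 just outside (FDR 0.0603), and PIP5K1A passed without baseline replicate 1 (FDR 0.0451), baseline replicate 2 (FDR 0.0453) or pralatrexate replicate 2 (FDR 0.0412).

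Kinases described as restraining growth had a median of 0.04 over 25 genes, which became -0.28 with scaling on the non-targeting sgRNAs. In this group 1 gene was enriched and 2 (8.0%) were depleted, a share close to the 7.21% of all genes. GSK3B (chr3:119821321-120094994), which marks beta-catenin and other proteins for destruction, had 7.97, 8.01 and 7.72 at baseline and 8.46, 8.54 and 8.46 with pralatrexate. The treated libraries all lay above baseline, and GSK3B rose by 0.58 ± 0.16 (FDR 0.00628). On the non-targeting scale its change was 0.26, and its call, which rests on ranks that such scaling moves little, was kept. The change of 0.58 lies inside the range of single non-targeting sgRNAs, -0.17 to 0.66. GSK3B lost its call without pralatrexate replicate 2 (FDR 0.0891). Its relative GSK3A had 8.09, 8.17 and 8.21 at baseline and 8.61, 8.60 and 8.46 with pralatrexate, and at 0.39 ± 0.29 it did not pass (FDR 0.118).

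The depleted members of that group were MAPK14 and CSK (-0.76), which holds SRC-family kinases inactive, so both went against the name of the list. CSK lost its call without baseline replicate 2 (FDR 0.0582), baseline replicate 3 (FDR 0.0643), pralatrexate replicate 1 (FDR 0.0542) or pralatrexate replicate 3 (FDR 0.0913). Genes restricted to germ cells, retina or lymphoid cells, used by other tissues, held 0 calls by rank aggregation among 27, where 7.21% of all genes were depleted. At an unadjusted p under 0.05, 0 of the 27 were lower and 4 higher, beside 113 and 67 of all 763 genes. On summed reads edgeR called 5 lower and 8 higher, beside 174 and 123 of the 763. All 27 lay within 0.5 of 0, beside 88.7% of all genes, around a median of 0.06, or -0.26 on the non-targeting scale.

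**Figure D4:**
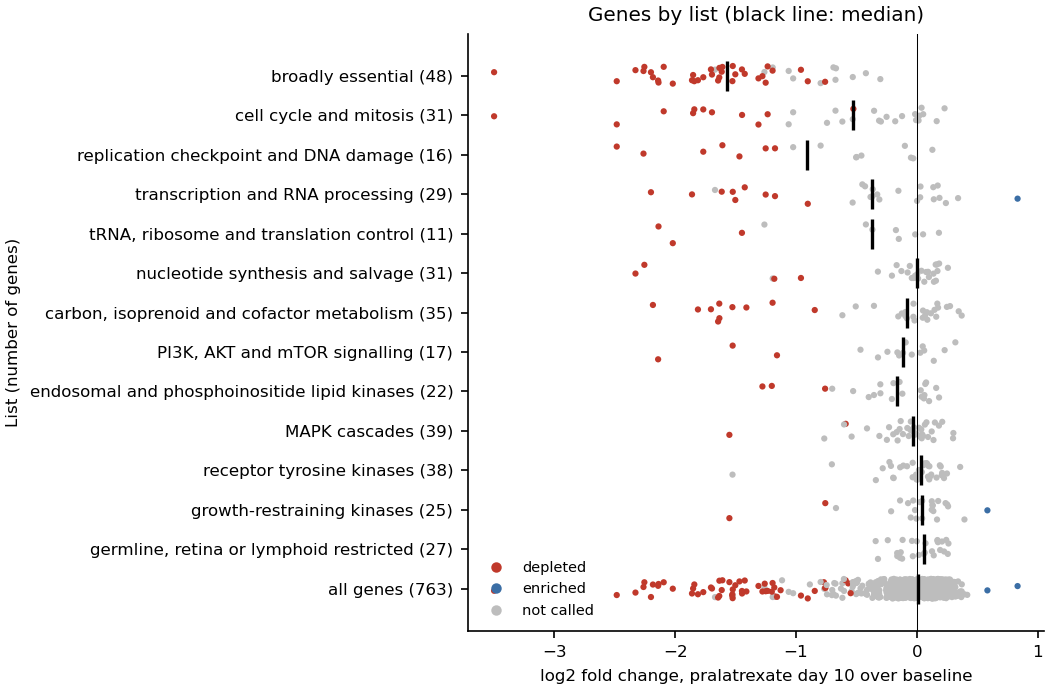
Log2 fold change, pralatrexate day 10 over baseline, of each gene in 13 lists and of all 763 genes, with depleted genes in red, enriched genes in blue and the median of each row as a black line. Broadly essential genes centre on -1.57 and checkpoint genes on -0.91, while receptor tyrosine kinases and restricted genes centre near 0.

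In a list of 48 broadly essential genes 36 were depleted, beside 55 of all 763 genes (7.21%), and the median was -1.57. The list shared 47 members with the other lists. It was chosen with earlier results of these data known, so its share of depleted genes adds no separate support. All 48 had every pralatrexate level below every baseline level, against 25.6% of all genes. The 12 that were not called ran from -1.67 (CDK7) to -0.30. Among the depleted genes, 6 belonged to no list. These were PAK2 (-1.53), a regulator of the cytoskeleton, the channel kinase TRPM7 (-1.26), the actin nucleator subunit ACTR2 (-1.13), the BMP receptor ACVR1 (-0.77), the AMPK activator CAMKK2 (-0.57) and the focal adhesion kinase PTK2 (-0.55).

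Relatives of these genes were not called, with PAK1 at 0.13, PAK3 at 0.37, TRPM6 at 0.10, BMPR1A at -0.41, CAMKK1 at 0.01 and PTK2B at 0.06. PAK3 was among the 13 genes above the non-targeting median. ACVR1 had 8.24, 8.23 and 8.22 at baseline and 7.41, 7.64 and 7.33 with pralatrexate, with 4 sgRNAs between -0.87 and -0.58. The call on ACVR1 was lost without baseline replicate 1 (FDR 0.0613) or pralatrexate replicate 3 (FDR 0.0646), and that on PTK2 without baseline replicate 3 (FDR 0.0643) or pralatrexate replicate 2 (FDR 0.069). Of other genes with an FDR from 0.05 to 0.10, the cell volume kinase WNK1 was at -1.11, RPS6KA4 at -0.63 over 3 sgRNAs, VRK1 at -0.30 and SPHK2 at -0.27. RPS6KA4 passed without baseline replicate 1 (FDR 0.0489). All 13 genes in that range were on the lower side, and all 13 had every treated level below baseline, as had 25.6% of all genes. The 13 were picked by an FDR from the same libraries, so their separation adds no support.

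Whether drug-exposed and vehicle-treated cells differed in these costs was read from the direct contrast of pralatrexate with vehicle at day 10, in the same fit. That contrast shares the treated libraries with the comparison above, so values are set side by side and no overlap was computed. Over the 55 depleted genes the pralatrexate minus vehicle difference had a median of -0.01, beside 0.01 over all genes, and 51 genes differed by less than 0.3. CDK1 was at -3.50 with pralatrexate and -3.25 with vehicle, CDC7 at -2.48 and -2.49, CHEK1 at -2.26 and -2.20, and MTOR at -2.14 and -2.07. DTYMK, the thymidylate kinase, was at -2.33 and -2.42, and CAD at -0.96 and -1.23. CDK13 was at 0.83 and 0.91, and GSK3B at 0.58 and 0.50.

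CDK12 was the exception among the depleted genes. Its vehicle levels were 8.17, 8.23 and 8.04, between those of baseline (8.66 to 8.72) and pralatrexate (7.08 to 7.75), with no overlap of the 3 groups. CDK12 was at -1.17 over baseline with pralatrexate and -0.54 with vehicle, and the direct difference was -0.64 (edgeR and rank aggregation, FDR 3.69e-05). No other depleted gene passed that contrast. CDK9 had the largest difference in size, 1.03, with -1.86 under drug and -2.89 with vehicle, and did not pass (FDR 0.73). TRRAP differed by 0.36 (FDR 0.73) and CLP1 by 0.33 (FDR 0.748).

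Passing against vehicle but not against baseline, in the fit without a replicate block, were NADK, TAF9 and PIK3R1. NADK was at -0.62 over baseline with pralatrexate and -0.02 with vehicle, and TAF9 at -0.45 and -0.09. PIK3R1 was at 0.05 with pralatrexate and 0.45 with vehicle, so its knockout kept its baseline share under the drug and had a larger share with vehicle. In that fit MAST4 and PLK2 passed in neither comparison. With the replicate number as a block, PLK2 passed against vehicle and MAST4 did not. MAST4 was at -0.25 ± 0.20 over baseline (FDR 0.248) and 0.02 with vehicle, with levels of 8.76, 8.74 and 8.76 at baseline and 8.53, 8.58 and 8.39 with pralatrexate. PLK2 was at -0.18 ± 0.17 and 0.14.

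**Figure D5:**
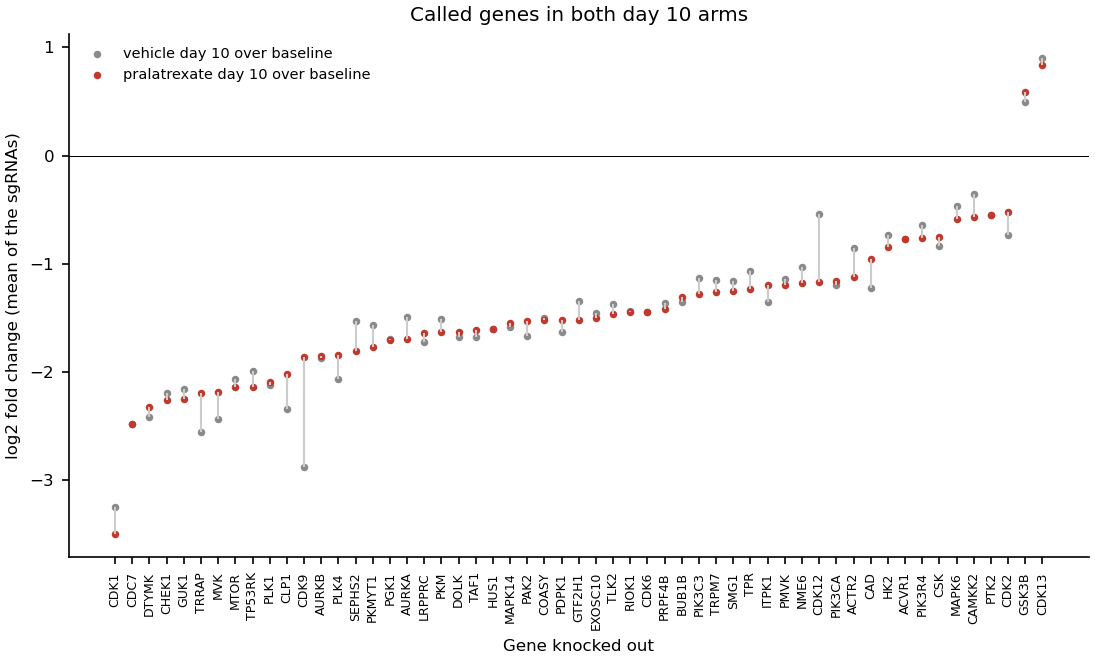
Mean log2 fold change over baseline of 55 of the 57 called genes at day 10, with pralatrexate in red and vehicle in grey, ordered by the pralatrexate value. Both arms are measured against the same 3 baseline libraries; the widest gaps are those of CDK9 (1.03) and CDK12 (-0.64).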

How the data were processed

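Genomic DNA of RH4 cells was sequenced at the sgRNA cassette in 9 libraries. The authors deposited a table of raw read counts, without normalization, with 4 sgRNAs per gene for 763 genes plus 100 non-targeting ones, 3152 in all. Bowtie 1.0.0 is named in the submitters' processing notes. How reads were matched and counted is not stated there. The deposited gene tables from MAGeCK hold the authors' own comparisons (fold changes, p-values) and were not used. Groups follow the labels. The main text of the study gives a longer puromycin selection than its methods, and the labels' times are used here.

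Counts were fitted with edgeR 4.0.16 in R 4.3.3 (quasi-likelihood, TMM scaling, group as the sole term, all 9 libraries), after 7 sgRNAs with a mean under 30 reads were removed, 1 of them non-targeting. One-sided sgRNA p-values were ranked and aggregated per gene, using ranks with p under 0.25, with an exact p for uniform ranks and Benjamini-Hochberg adjustment over all genes (threshold 0.05), in place of MAGeCK's rank aggregation, which was not installed. The SD of a gene's change is over its sgRNAs. Levels are log2 CPM with a prior count of 2. Chi-square over its degrees of freedom was 10.7 to 25.7 for 2 libraries of 1 group, so none was a repeat deposit. Same-numbered vehicle and pralatrexate libraries deviated together (r of 0.163, 0.183 and 0.193 across sgRNAs) and count as pairs. Baseline and pralatrexate libraries did not (-0.00868, 0.0229 and 0.0277). Scripts were tested on simulated counts. Gene spans came from GENCODE release 44, where 761 of 763 genes were found.

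The genes, the 13 gene lists and the alternatives were chosen with earlier results of these data known. Named were the 15 depleted and 5 enriched genes with the largest change (all where fewer), all other called genes, genes with FDR from 0.05 to 0.10, and CDK12, PIK3R1, NADK, MAST4, PLK2, TK1, DCK, ADK and NADK2. Family members, CDK7, ATR, FGFR4 and other uncalled genes were added after their values were seen. A few genes under this rule are not reported here, though they stay in the counts. Alternatives covered the samples in the fit, scaling (non-targeting sgRNAs, total reads), DESeq2 1.42.0, filters, a replicate block, leaving out each library, leaving out the strongest sgRNA, edgeR on summed reads and limma 3.58.1 on gene means.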

Additional observations from a re-analysis of the deposited data

Results flagged for a closer look

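Drug-exposed and vehicle-treated cells were measured against the same baseline, and 4 genes had changes that differed between the arms by the direct contrast (edgeR and rank aggregation, FDR over all genes). The difference, pralatrexate minus vehicle, was -0.64 for CDK12 (FDR 3.69e-05), -0.59 for NADK (FDR 0.00409), -0.40 for PIK3R1 (FDR 0.000277) and -0.36 for TAF9 (FDR 0.00178). CDK12 alone of these was also depleted against baseline. With the replicate number as a block, which the pairing of these arms allows and which was added after the data were seen, 5 genes passed in place of 4, the additional one being PLK2 at -0.33 (FDR 0.0089, against 0.0557 without the block). MAST4 passed in neither fit (-0.27, FDR 0.089 and 0.13).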

How the results depend on the processing

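All 57 called genes kept their sign under each of the 16 settings run. Genes near 0 change sign with the scaling. Depleted genes numbered 55, with 50 to 57 on leaving out 1 library, 55 among the 6 compared libraries alone, 48 with scaling on non-targeting sgRNAs and 54 with DESeq2. How sgRNAs were combined moved the count most: 21 depleted and 1 enriched without the strongest sgRNA of each gene, 174 and 123 with edgeR on summed reads, and 152 and 75 with limma on gene means. All 55 depleted and both enriched genes passed both of the latter tests. Enriched genes numbered 1 to 5 on leaving out 1 library, with 5 without baseline replicate 3 and 1 without pralatrexate replicate 2. Changed sgRNAs numbered 600, of which 31.3% were higher, and 433 to 533 on leaving out 1 library. Scaling on non-targeting sgRNAs gave 1358, of which 0.589% were higher, since it places the median gene at -0.31. Of the 57 called genes 49 kept their call whichever library was left out, and 22 kept it in all 16 settings. Baseline and pralatrexate libraries share only a number: with the replicate block 55 genes were depleted, 2 enriched and 642 sgRNAs changed. The non-targeting shift of 0.34 ran from 0.314 to 0.325 on leaving out 1 library. Depth limits the rarest sgRNAs most, such as that of CDK9 with 0 to 43 reads after treatment.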

Other observations

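Changes of the genes that were not called differed by chromosome. Over 704 such genes with a GENCODE span the median was 0.03. It was 0.18 on chromosome 8 (22 genes), 0.16 on chromosome 7 (40 genes) and 0.16 on chromosome X (31 genes), and -0.13 on chromosome 12 (34 genes), -0.12 on chromosome 16 (21 genes) and -0.10 on chromosome 11 (23 genes). On chromosome X 27 of 31 uncalled genes lay above 0, and on chromosome 16 18 of 21 lay below.

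Within these chromosomes the values ran in stretches, which were picked after the values were seen and carry no test. All 14 uncalled genes from 48 to 68 Mb of chromosome 12, CDK4, ERBB3 and PFKM among them, lay below 0, with a median of -0.17. All 10 from 61 to 69 Mb of chromosome 11 lay below 0 as well, from -0.63 to -0.09, with a median of -0.32. All 13 from the start of chromosome 7 to 57 Mb lay above 0, with a median of 0.24, and EGFR was the highest at 0.36. In the same stretches the vehicle medians over baseline were -0.19, -0.25 and 0.24. Called genes were left out of these counts: CDK2 (-0.52) in the first stretch, and CDK13 (0.83) and HUS1 (-1.61), which lie on opposite sides of 0, in the last. Copy number of RH4 was not measured in these data, and its part in these values was not tested.

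Some uncalled genes held a single low sgRNA. CDK11B had 1 sgRNA at -1.71 and the other 3 between 0.01 and 0.25. The highest sgRNA of any gene was one of PFKL, at 1.26, which did not pass on its own (FDR 0.28).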
